A study of Mus musculus with 18 samples.

Results

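Gene expression was compared between mouse embryoid bodies in which a Flag-tagged Msgn1 had been switched on for 48 h and uninduced embryoid bodies of the same age. The arrays were chosen by their titles, 3 of induced and 3 of uninduced embryoid bodies, which is 6 of the 18 arrays in the series. Both groups came from the A2lox-Flag-Msgn1 embryonic stem cell line of strain 129P2, and both carried the inducible cassette. The cells had been kept with LIF on mouse embryonic fibroblasts treated with mitomycin, and were then differentiated for 2 days as embryoid bodies in medium with serum and ascorbic acid. The induced group received doxycycline at 1 µg/ml on day 2 and was collected 48 h later, and the uninduced group received none. No group had doxycycline without the Msgn1 cassette, so an effect of the drug and an effect of Msgn1 cannot be told apart. The other 12 arrays hold the same pair of groups at 12 h and 24 h, again 3 arrays each. The labels call the 3 arrays of a group biological replicates, and with so few arrays their number limits the precision. Per the labels' treatment protocol, the line's own presomitic markers begin on day 3 in this culture, so induction on day 2 makes Msgn1 present early.

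Msgn1 (mesogenin 1) belongs to the basic helix-loop-helix transcription factors and is active in presomitic mesoderm, the tissue beside the neural tube from which somites are cut. Mouse embryos without it fail to form posterior somites. Cells that leave the primitive streak can become paraxial mesoderm at low Bmp signalling and lateral, cardiac or blood-forming mesoderm where Bmp signalling is higher. Cells that keep their epithelial state can become neural ectoderm.

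The deposited values were signal intensities on a linear scale. The effect is the difference of group means of log2(signal + 32), induced minus uninduced, and a fold is 2 to that power, so it understates the change of dim genes. A gene was called where limma's adjusted p was under 0.05. Median signals of the 6 arrays lay between 18.8 and 22.0, and replicates at 48 h correlated at 0.992 or more on the log2 scale. The 3' to 5' signal ratio of the Gapdh control probe sets averaged 0.906 in induced and 0.874 in uninduced arrays (exact permutation p = 0.1, the smallest that 3 against 3 arrays allow). That of Actb averaged 1.68 in both groups (exact permutation p = 1). Among the 3 induced arrays, replicate 2 lay nearest the uninduced arrays for 19 of the 20 largest rises and 17 of the 20 largest falls, and for 50.5% of all genes called higher and 58.5% of those called lower. Uninduced replicate 2 lay nearest the induced arrays for 14 of the 20 rises and 14 of the 20 falls. Without induced replicate 2 the test called 1681 genes, and without uninduced replicate 2 it called 1472, against 1768 with every array.

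Msgn1 had signals of 53.5, 56.3 and 44.5 in the induced arrays, against 5.05, 8.68 and 4.69 in the uninduced arrays. All 3 induced arrays lay far above the uninduced ones, whose values were under the signal of 13.3 used as the filter on dim probe sets. The effect was 1.13 ± 0.116 (limma adjusted p = 3.46e-07), close to the 1.08 at 24 h and the 1.01 at 12 h. Whether its probe set reads the cassette, the line's own gene or both was not tested.

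Of 14332 genes tested, 1768 (12.3%) were called at 48 h, 975 (6.8%) higher and 793 (5.53%) lower in induced embryoid bodies. The 3 induced arrays lay wholly above or below the 3 uninduced arrays for 4162 genes (29.0%), above for 2267 (15.8%) and below for 1895 (13.2%), and 1734 of the called genes were among these. Most changes were small. The median effect was 0.51 for genes called higher, -0.46 for genes called lower and 0.0080 for all genes. The rises reached further than the falls: 129 genes (0.9%) rose and 43 (0.3%) fell by at least 2-fold, and 12 (0.0837%) rose and 1 (0.00698%) fell by at least 4-fold.

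The largest rise was that of Igf2, the imprinted growth factor gene insulin-like growth factor 2. Its signals were 4990, 3326 and 3650 in the induced arrays, against 217, 257 and 268 in the uninduced arrays, a 14.2-fold rise (effect 3.83 ± 0.141, limma adjusted p = 7.73e-14). Pmp22, a peripheral myelin protein gene also active in mesenchyme, had 1284, 808 and 1006 in the induced arrays, against 61.8, 132 and 65.2 in the uninduced arrays. In both genes the lowest induced array was several times brighter than the highest uninduced array. Hprt, the purine salvage gene on the X chromosome at which A2lox lines carry their inducible cassette, had 1934, 1850 and 2028 in the induced arrays, against 210.1, 252 and 211 in the uninduced arrays. It rose 7.70-fold, and whether RNA from the cassette adds to this probe set was not tested.

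Transcription factor genes of lateral plate mesoderm were next. Foxf1, a forkhead gene of the splanchnic mesoderm that lines the gut tube, was nearly dark without induction, with signals of 367, 137 and 299 in the induced arrays, against 8.44, 10.4 and 10.8 in the uninduced arrays. Hand2, a basic helix-loop-helix gene of heart and limb mesoderm, had 329, 198 and 268 in the induced arrays, against 21.3, 20.2 and 8.31 in the uninduced arrays. Induced replicate 2 was the dimmest induced array for both genes and still lay far above every uninduced array. The effects were 2.75 ± 0.213 for Foxf1 and 2.60 ± 0.157 for Hand2 (limma adjusted p = 6.05e-09 and 1.43e-10), and that of Foxf1 was 3.12 without replicate 2. Each gene has a further kept probe set that was not called. Tbx3, a T-box gene of heart and limb that also serves in naive stem cells, had 539, 432 and 542 in the induced arrays, against 86.3, 91.0 and 81.5 in the uninduced arrays. It rose 4.52-fold, with 2 of its 3 probe sets called. Msx2, a homeobox gene that Bmp signals switch on, had 506, 342 and 380.5 in the induced arrays, against 77.1, 88.8 and 61.7 in the uninduced arrays. Prdm6, a smooth muscle repressor gene, had 434, 271 and 390.3 in the induced arrays, against 70.3, 81.1 and 52.3 in the uninduced arrays, and rose 3.94-fold. Hoxb2, an anterior Hox gene of hindbrain and branchial regions, rose 3.87-fold.

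Ligands, receptors and modulators of signalling made up much of the rest. Bmp4, the ligand that directs mesoderm toward ventral and lateral fates, had 914, 336 and 622 in the induced arrays, against 50.1, 116 and 83.5 in the uninduced arrays. The induced arrays differed from each other by more than 2-fold, and the lowest of them was still brighter than the highest uninduced array. Its effect was 2.45 ± 0.232 (limma adjusted p = 1.15e-07), and 2.81 without induced replicate 2, the array nearest the uninduced ones. Kdr, the VEGF receptor gene of blood and vessel progenitors, had 663, 556 and 668 in the induced arrays, against 75.3, 136 and 77.5 in the uninduced arrays. Gfra2, a co-receptor gene for neurturin, had 329.8, 332 and 335 in the induced arrays, against 42.6, 50.0 and 39.0 in the uninduced arrays, and 3 of its 4 probe sets were called. The induced values of Gfra2 hardly differed from each other. Wnt5a, a Wnt ligand gene of convergent extension and outgrowth, rose 3.52-fold, Pcsk5, a proprotein convertase gene, 4.43-fold, and Igfbp4, which encodes a binding protein for insulin-like growth factors, 3.73-fold. Asb4, a subunit gene of a ubiquitin ligase active in vascular progenitors, rose 4.94-fold. The remaining large rises were those of Phlda2 (3.901-fold), an imprinted gene that limits placental growth, Stard8 (3.79-fold), Phlda1 (3.67-fold), a pleckstrin homology-like gene, and Greb1l (3.63-fold, 1 of 2 probe sets called), a gene needed for kidney formation. The highest limma adjusted p of these 20 genes was 5.94e-07, and 1.36e-05 when any 1 array was left out. The probe set IDs of Gfra2 and Pcsk5 mark them as able to match further transcripts.

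The largest fall was that of Foxa2, the forkhead gene of definitive endoderm, node and floor plate. Its signals were 116, 218 and 169.6 in the induced arrays, against 844, 749 and 724 in the uninduced arrays. The highest induced array lay far below the lowest uninduced one, and the gene fell 4.11-fold (effect -2.04 ± 0.175, limma adjusted p = 2.66e-08), or -2.21 on the log2 scale without induced replicate 2. Cer1, a secreted Nodal, Bmp and Wnt antagonist gene of anterior endoderm, had 75.0, 127 and 82.5 in the induced arrays, against 427, 263 and 400.2 in the uninduced arrays, and fell 3.11-fold. Trh, the thyrotropin-releasing hormone gene, which is active in early definitive endoderm of the mouse embryo, had 746, 1151 and 814 in the induced arrays, against 3026, 2518 and 2904 in the uninduced arrays, and fell 3.08-fold.

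Genes of the epiblast and of stem cells formed a further part of the falls. Fgf5, the growth factor gene that marks the primed epiblast, had 448, 766 and 675 in the induced arrays, against 1653, 1541 and 1564 in the uninduced arrays. Foxd3, a forkhead gene needed to maintain the epiblast and neural crest, had 36.7, 59.8 and 59.0 in the induced arrays, against 211, 187 and 199 in the uninduced arrays. In neither gene did the groups overlap, which was a condition for all 20 largest rises and 20 largest falls. Eras, a Ras gene of embryonic stem cells, fell 2.82-fold, Pou3f1, a POU factor gene of epiblast and neural progenitors, 2.42-fold, and Sox3, a SoxB1 gene of early neural tissue, 2.46-fold. Myb, a transcription factor gene of blood progenitors, fell 2.48-fold. Transport and surface genes were Slc27a2, a fatty acid transporter gene (signals 128, 260.4 and 182 in the induced arrays, against 682, 660.5 and 669.5 in the uninduced arrays), Abcc4, an efflux pump gene, Slc39a8, a zinc and manganese importer gene, Enpp3, an ectonucleotidase gene, and Calcr, the calcitonin receptor gene. They fell 3.26-, 2.34-, 2.32-, 2.78- and 2.61-fold in that order. Irs4, an insulin receptor substrate gene, had 83.6, 115 and 61.9 in the induced arrays, against 425, 312 and 404 in the uninduced arrays and fell 3.50-fold. The others of the 20 were Myrf, a membrane-bound transcription factor gene, Rab25, a small GTPase gene of epithelia, the matrix gene Spon1, the microtubule tip gene Slain1 and Tox3, an HMG-box gene, with effects from -1.34 for Myrf to -1.21 for Tox3. The highest limma adjusted p of these 20 falls was 1.59e-05, and 2.83e-04 when any 1 array was left out. Kept probe sets that were not called stood beside the called ones for Irs4 (1 of 2 called), Enpp3 (3 of 4) and Sox3 (1 of 2), and those of Eras and Myb can also match other transcripts.

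**Figure D1:**
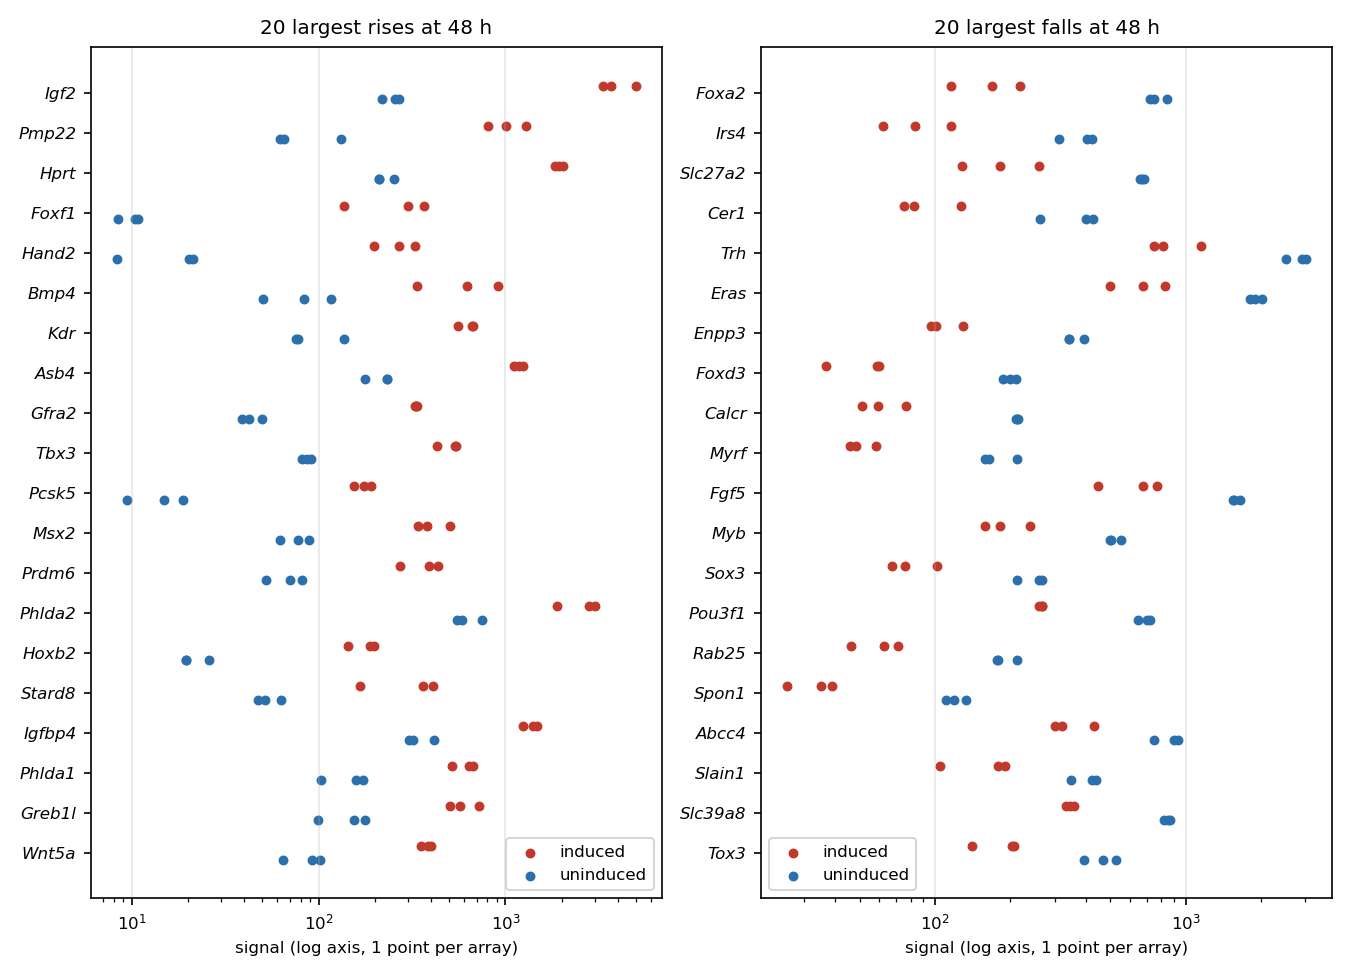
Signal of the 20 genes with the largest rises (left) and the 20 with the largest falls (right) at 48 h, on a log axis with 1 point per array; red points are the 3 induced and blue points the 3 uninduced arrays. Only genes whose groups do not overlap could enter the figure. Igf2 lies between 3326 and 4990 in induced and between 217 and 268 in uninduced arrays. Foxa2 lies between 116 and 218 in induced and between 724 and 844 in uninduced arrays.

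By the smallness of the adjusted p, 12 further genes stood out. The Notch ligand gene Dll3 had 687, 798 and 735 in the induced arrays, against 246, 270.4 and 246 in the uninduced arrays, and the Bmp target genes Id1 (1.65 ± 0.0988), Smad6 (1.80 ± 0.123) and Msx1 (1.71 ± 0.101) rose. Id1 encodes an inhibitor of basic helix-loop-helix factors, and Smad6 an inhibitory Smad that damps Bmp signalling. Hapln1, a link protein gene of hyaluronan matrix, had 132, 112 and 126 in the induced arrays, against 15.4, 10.1 and 13 in the uninduced arrays, and Vegfc, a lymphatic growth factor gene, rose by 1.63 ± 0.0980. On the falling side, Sox2, the core SoxB1 factor gene of pluripotent and neural cells, had 977, 1171 and 988 in the induced arrays, against 2104, 2191 and 2319 in the uninduced arrays. Epcam, an epithelial adhesion molecule gene, had 933, 1090 and 1023 in the induced arrays, against 1899, 1944 and 2045 in the uninduced arrays. Both genes fell to about the same degree, with effects of -1.06 and -0.93, and replicates lay close together. Otx2, a homeobox gene of epiblast and forebrain (-1.05 ± 0.0916), Zic5, a zinc finger gene of neural tissue (-1.01 ± 0.0869), Mgst1, a glutathione transferase gene (-1.01 ± 0.0863), and Pdzd4 (-1.14 ± 0.0954, 1 of 2 probe sets called) fell as well. The highest limma adjusted p of these 12 genes was 3.40e-08, and probe sets of Msx1 and Vegfc can also match other transcripts.

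Basic helix-loop-helix proteins such as Msgn1 and Hand2 bind the E-box, a 6-base motif written CANNTG. The promoter windows of 3 large rises of lateral mesoderm, Bmp signalling and vessel progenitors, and of 1 large fall of endoderm, are shown to let the motif be seen beside the values above. Each runs from 250 bases before to 50 bases after the RefSeq start of the gene (mouse GRCm38.p6), 5' to 3' on the gene's strand, with every CANNTG in capitals. They lie at chr8:57320733-57321032 (plus strand, Hand2), chr14:46390620-46390919 (minus strand, Bmp4), chr5:75978406-75978705 (minus strand, Kdr) and chr4:82885102-82885401 (minus strand, Cer1).
Hand2: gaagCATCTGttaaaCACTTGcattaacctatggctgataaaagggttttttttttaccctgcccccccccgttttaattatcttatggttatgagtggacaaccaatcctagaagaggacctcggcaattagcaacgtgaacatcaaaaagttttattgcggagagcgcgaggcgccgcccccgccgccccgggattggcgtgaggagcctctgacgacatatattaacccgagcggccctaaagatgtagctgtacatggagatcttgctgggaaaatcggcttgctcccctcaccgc
Bmp4: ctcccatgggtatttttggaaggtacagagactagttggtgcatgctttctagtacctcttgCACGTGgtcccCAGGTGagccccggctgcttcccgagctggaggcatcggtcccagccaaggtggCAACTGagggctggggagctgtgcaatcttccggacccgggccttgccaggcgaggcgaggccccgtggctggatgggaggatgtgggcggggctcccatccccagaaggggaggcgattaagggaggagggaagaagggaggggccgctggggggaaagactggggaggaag
Kdr: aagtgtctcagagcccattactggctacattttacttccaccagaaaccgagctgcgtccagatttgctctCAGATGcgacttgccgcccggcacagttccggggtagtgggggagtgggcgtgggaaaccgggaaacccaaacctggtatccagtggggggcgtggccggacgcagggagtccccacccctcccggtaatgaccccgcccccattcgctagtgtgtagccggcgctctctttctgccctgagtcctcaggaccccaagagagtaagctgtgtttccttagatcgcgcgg
Cer1: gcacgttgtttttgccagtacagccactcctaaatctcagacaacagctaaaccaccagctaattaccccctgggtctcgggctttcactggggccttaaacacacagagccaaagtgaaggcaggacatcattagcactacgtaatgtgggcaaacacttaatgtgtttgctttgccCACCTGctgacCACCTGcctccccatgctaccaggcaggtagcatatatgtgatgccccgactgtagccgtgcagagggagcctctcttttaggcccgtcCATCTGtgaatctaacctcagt

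The pattern reads the same on both strands, so 1 search covers both, and it was found 2 times in the window of Hand2, 3 times in that of Bmp4, 1 time in that of Kdr and 3 times in that of Cer1. The pattern is common: 72.3% of all 32851 promoter windows of the same length hold it, and 65.3% of the windows of tested genes. Among windows of genes called higher at 48 h 62.9% held it, and among those of genes called lower 70.1%. Of the 20 largest rises 12 genes had a window, and of the 20 largest falls 16. A match describes these letters in these windows and is not a measured binding site.

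The cardiac and lateral mesoderm list had the highest median effect of the 41 lists, 0.92. Of its 23 tested members 18 rose, 0 fell and 5 did not pass. Over all genes tested, 6.8% were called higher and 5.53% lower, and the counts of every list below stand beside these shares. The lists were written with earlier results of these data known, so a larger share in a list is not separate support. Beside Foxf1, Hand2, Bmp4, Tbx3 and Msx2, the members that rose included 3 genes picked for mention after their values were seen. Tbx20, a T-box gene of the heart, averaged 183 in induced and 37.4 in uninduced arrays. Isl1, a homeobox gene of the second heart field, averaged 131 in induced and 24.8 in uninduced arrays, and the zinc finger gene Gata6 475 in induced and 296 in uninduced ones. The GATA factor gene Gata4, of heart and endoderm, rose by 0.92 ± 0.122 (1 of 2 probe sets called), with signals of 124, 123 and 124 in the induced arrays, against 52.6, 55.3 and 43.4 in the uninduced arrays. Hand1, a heart and trophoblast gene, rose by 1.08 ± 0.157. Other heart genes did not pass. Nkx2-5, an early marker of committed heart progenitors, averaged 33.8 in induced and 30.1 in uninduced arrays (effect 0.086 ± 0.124, adjusted p = 0.748), and Tbx5 stood at 0.52 ± 0.182 (adjusted p = 0.0691). At 24 h 6 members of the list had been called higher, and the effect at 48 h was called larger than that at 24 h for 11 members. Where leaving out 1 array moved the count of any list by over 1.5 times, the count without that array follows it in brackets. In bulk RNA, fewer cells of a type and less RNA per cell cannot be told apart, here or in any list below.

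Genes of Bmp signalling rose among ligands, inhibitors and targets. In the list of the Tgfb, Nodal and Bmp pathway 16 of 31 tested members rose, 4 fell (2 without induced replicate 1 or 3 or uninduced replicate 3, 1 without uninduced replicate 1) and 11 did not pass, with a median effect of 0.42. Among ligands, Bmp4 was joined by Bmp5 and Bmp2, both picked for mention after their values were seen. Bmp5 averaged 151 in induced and 26.6 in uninduced arrays, and Bmp2 609.5 in induced and 198 in uninduced ones. Among intracellular inhibitors and targets, Smad6 had 559, 372 and 463 in the induced arrays, against 110.2, 119.8 and 96.8 in the uninduced arrays. Id1 had 2417, 1802 and 2160 in the induced arrays, against 696, 681 and 588 in the uninduced arrays, and Msx1 had 1108, 1031 and 1133 in the induced arrays, against 326, 312 and 293 in the uninduced arrays. In all 3 the groups were far apart. Lefty1, a Nodal antagonist gene, had 149.9, 270.5 and 156 in the induced arrays, against 443, 341 and 462 in the uninduced arrays, and fell by 1.03 ± 0.135. The Bmp receptor gene Bmpr1a stood at 0.13 ± 0.123 (adjusted p = 0.581), also named after its value was seen. At 24 h 7 members had been called higher, and 11 had an effect called larger at 48 h than at 24 h.

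Genes of blood and vessel progenitors formed the endothelial and blood list, in which 14 of 24 tested members rose, 1 fell and 9 did not pass (median effect 0.47). Early regulators led it. Etv2, the ETS gene that starts the blood and vessel programme, had 561, 468 and 539 in the induced arrays, against 174, 231 and 159 in the uninduced arrays. Tal1, a basic helix-loop-helix gene of blood stem cells, had 179.8, 173 and 171 in the induced arrays, against 32.5, 57.1 and 32.01 in the uninduced arrays. Fli1, an ETS gene, rose by 1.69 ± 0.138, and Sox7, a gene of early endothelium and extraembryonic endoderm, by 1.42 ± 0.119 (1 of 2 probe sets called). Of 8 further members looked up afterwards, 5 endothelial genes were called higher: Erg (1.06 ± 0.141), Esam (0.90 ± 0.158), Tek (0.82 ± 0.125), Egfl7 (0.50 ± 0.107) and Cdh5, the cadherin gene of vessel walls (0.40 ± 0.129). The call of Cdh5 ended without induced replicate 1 or 3 or uninduced replicate 1 or 3 (adjusted p 0.0693 to 0.252). The other 3 did not pass: the erythroid factor gene Gata1 stood at -0.30 ± 0.119 (adjusted p = 0.119), Pecam1, a junction gene of mature endothelium, at -0.11 ± 0.210 (adjusted p = 0.807), and the embryonic globin gene Hbb-bh1 at 0.14 ± 0.200 (adjusted p = 0.743). The member that fell, Sox17, is shared with the endoderm list.

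Segmentation genes, closest to the known role of Msgn1, were higher without being the largest rises. Of 25 tested members of the presomitic and segmenting list 15 rose, 0 fell and 10 did not pass, with a median effect of 0.66. The transcriptional cofactor gene Cited1 had 178, 114 and 98.8 in the induced arrays, against 24.3, 29.7 and 25.6 in the uninduced arrays. Notch1, the receptor for Dll3's family of ligands, had 312, 327 and 265 in the induced arrays, against 149, 154 and 93.4 in the uninduced arrays (1 of 2 probe sets called). Snai1, a repressor gene of epithelial adhesion, had 139, 147 and 168 in the induced arrays, against 65.1, 60.9 and 49.2 in the uninduced arrays. The T-box gene Tbx6, needed for paraxial mesoderm, and Mesp2, a segment border gene, rose by 0.69 ± 0.114 and 0.66 ± 0.111, and were named after their values were seen. The groups did not overlap in Cited1, Notch1 or Snai1, as in 1734 of the 1768 called genes. At 24 h 15 members of the list were called higher, and for 3 members the effect at 48 h was called smaller than at 24 h. In the somite and dermomyotome list, which describes the next step, 5 of 13 tested members rose, 0 fell and 8 did not pass. The members that rose were Twist1 (0.72 ± 0.117), Sox9 (0.68 ± 0.159, 1 of 2 probe sets called), Foxc1 (0.52 ± 0.117), Mest (0.45 ± 0.0867) and Pax3, whose call was weak and is taken up below with others like it, and 12 members were not tested, among them Meox1 and Meox2. Tcf15 (paraxis), an early somite gene, stood at -0.16 ± 0.0848 (adjusted p = 0.274), a value looked up afterwards. In the intermediate mesoderm and kidney list 3 of 12 rose, 0 fell and 9 did not pass. Six2, a gene of kidney progenitors, rose by 1.13 ± 0.135, and the GATA factor gene Gata3 by 1.05 ± 0.173. In the cartilage and sclerotome list 3 of 11 rose, 0 fell and 8 did not pass, with Hapln1 and Sox9 foremost.

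The primitive streak and nascent mesoderm list was split: 8 of 21 tested members rose, 4 fell and 9 did not pass. Its median effect was 0.051. Pdgfra, a growth factor receptor gene of mesoderm, had 543, 553 and 550.5 in the induced arrays, against 184, 260.3 and 174 in the uninduced arrays (2 of 3 probe sets called). Mesp1, a gene of cardiac and cranial mesoderm, and Evx1, a homeobox gene of the posterior streak, rose by 1.11 ± 0.165 and 1.23 ± 0.153, both named after their values were seen. The members that fell most were Foxa2, Cer1 and Fgf5. The T-box gene Eomes, which acts in the streak for both mesoderm and endoderm, and Mixl1 did not pass at 48 h (effects -0.083 ± 0.164 and 0.26 ± 0.188).

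The Notch pathway list held 9 members that rose, 1 that fell (0 without induced replicate 1 or uninduced replicate 1) and 20 that did not pass, of 30 tested. Beside Dll3 and Notch1, the ligand gene Dll1 had 227, 146 and 158 in the induced arrays, against 81.9, 115 and 84.2 in the uninduced arrays. Hey2, a Notch target gene of heart and vessels, had 82.0, 54.0 and 62.7 in the induced arrays, against 12.7, 19.9 and 16.5 in the uninduced arrays, and Nrarp, a feedback inhibitor gene, rose by 0.69 ± 0.104 (1 of 2 probe sets called). The groups did not overlap in any of these 3 genes, as in most called genes. Among canonical Wnt targets and effectors 8 of 19 rose, 1 fell (0 without induced replicate 2 or 3 or uninduced replicate 1, 2 or 3) and 10 did not pass. The inhibitor genes Apcdd1 (1.76 ± 0.234, 5 of 6 probe sets called) and Nkd1 (1.15 ± 0.138, 2 of 4 called), the Wnt amplifier gene Rspo3 (0.98 ± 0.120), the posterior homeobox gene Cdx2 (0.81 ± 0.149) and the effector gene Lef1 (0.73 ± 0.125, 1 of 2 called) rose most. Among Wnt ligands and antagonists 5 of 20 rose, 4 fell (2 without induced replicate 1 or 3 or uninduced replicate 3) and 11 did not pass, with Wnt5a, Wnt2 (0.78 ± 0.109), Wnt3 (0.68 ± 0.133) and the antagonist gene Dkk1 (0.67 ± 0.133) upward and the antagonist gene Sfrp1 (-0.54 ± 0.118, 3 of 5 probe sets called) downward. Wnt3a, the ligand of the presomitic progenitors, stood at -0.20 ± 0.152 (adjusted p = 0.489), looked up afterwards. In the planar cell polarity list 2 of 20 rose (1 without uninduced replicate 3), 4 fell (2 without induced replicate 1 or 3 or uninduced replicate 1 or 2) and 14 did not pass. Wnt5a was the largest rise, and the receptor gene Fzd6 fell by 0.59 ± 0.117.

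Of 24 tested genes of the FGF pathway 5 rose (3 without induced replicate 1 or 3 or uninduced replicate 1 or 2), 5 fell and 14 did not pass. The ligand genes Fgf10 and Fgf3 rose by 1.32 ± 0.131 and 1.14 ± 0.153, and Fgf10, a ligand of heart and limb mesoderm, had 164, 123 and 136 in the induced arrays, against 36.1, 43.7 and 31.6 in the uninduced arrays. The other rises were Fgfr3 and Fgf15, whose calls were weak, and Spred1 (0.46 ± 0.0799). Fgf5 fell as given above. The other falls were Spry1 (-0.54 ± 0.0849), Spry2 (-0.54 ± 0.0786), Etv5 (-0.41 ± 0.102) and Fgf4 (-0.34 ± 0.0944). Spred1 and these other falls were named after their values were seen. The median effect of the FGF list was -0.083. In the retinoic acid list 4 of 14 rose, 2 fell (1 without induced replicate 1 or uninduced replicate 3) and 8 did not pass. Hoxb1, a retinoic acid target and anterior Hox gene, had 168, 117 and 147 in the induced arrays, against 24.7, 34.0 and 28.4 in the uninduced arrays, and Crabp1, a binding protein gene, rose by 1.07 ± 0.155. Cyp26a1, whose product breaks retinoic acid down, had 1776, 1814 and 1822 in the induced arrays, against 1008, 1132 and 924 in the uninduced arrays. The induced arrays of Cyp26a1 lay close together and above every uninduced one.

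Hox genes were read by their position in the clusters. Of 8 tested genes of groups 1 to 5, 5 rose and 3 did not pass: Hoxb2, Hoxb3 (142, 122 and 122 in the induced arrays, against 21.9, 19.1 and 22.6 in the uninduced arrays), Hoxb1, Hoxd1 (0.71 ± 0.120) and Hoxc4 (0.70 ± 0.123). Of 10 tested genes of groups 6 to 13, 0 were called by limma in either direction and 1 had an unadjusted p under 0.05. Hoxb6 stood at 0.31 ± 0.122 and Hoxa9 at -0.24 ± 0.120. The summed signal of the posterior genes was 119 to 156 in induced and 110 to 162 in uninduced arrays, near the floor of the arrays, and 14 further posterior genes were not tested.

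Of the 41 lists, the mesenchymal transition list had the largest share of members called higher. In it 19 of 23 tested members rose, 0 fell and 4 did not pass (median effect 0.66). Zeb1, a repressor gene of the epithelial state, had 264, 176 and 219 in the induced arrays, against 46.8, 65.6 and 33.2 in the uninduced arrays (1 of 2 probe sets called). Fn1, the fibronectin gene, had 4554, 3752 and 3685 in the induced arrays, against 1667, 2023 and 1161 in the uninduced arrays. Cdh11, a mesenchymal cadherin gene, rose by 1.11 ± 0.129, and Cxcr4, a chemokine receptor gene, by 1.44 ± 0.125. Vim, the vimentin gene, named after its value was seen, averaged 4192 in induced and 2643 in uninduced arrays. Snai2, a repressor gene of migrating mesoderm and neural crest, rose by 1.03 ± 0.172 (1 of 2 probe sets called).

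Many epithelial adhesion genes moved the other way. Of 32 tested members 17 fell, 2 rose (1 without induced replicate 1) and 13 did not pass, and the list's median effect was -0.41. Rab25 and Epcam, given above, were among the largest falls. Cdh1, the E-cadherin gene, named after its value was seen, averaged 2202 in induced and 3747 in uninduced arrays (effect -0.78 ± 0.106). The claudin gene Cldn6 had 291, 277 and 285 in the induced arrays, against 566, 556 and 687 in the uninduced arrays. Crb3, an apical polarity gene, fell by 0.84 ± 0.122 (2 of 3 probe sets called), and the claudin gene Cldn3 fell by 0.82 ± 0.158. The members that rose were the desmosome gene Dsp (0.72 ± 0.133) and the keratin gene Krt19 (0.68 ± 0.173). Further desmosome and keratin genes, Dsg2, Dsc2, Pkp2, Pkp3, Jup, Krt8 and Krt18, did not pass. All of these desmosome and keratin genes were named after their values were seen. At 24 h 3 members of the list had been called lower, and for 6 the effect at 48 h was called below that at 24 h.

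Matrix and guidance genes rose in part. Of 26 tested collagen chain genes 10 rose, 0 fell (1 without induced replicate 2) and 16 did not pass, among them Col14a1 (114, 111 and 122 in the induced arrays, against 15.3, 14.3 and 20.5 in the uninduced arrays), Col23a1 (1.43 ± 0.124), Col13a1 (1.13 ± 0.136) and the basement membrane chains Col4a1 (1.08 ± 0.110) and Col4a2 (1.04 ± 0.130). Of 29 integrin, laminin and matrix genes 11 rose (7 without induced replicate 1), 1 fell (3 without induced replicate 2, 2 without uninduced replicate 3) and 17 did not pass. The fibrillin gene Fbn2 rose by 1.55 ± 0.183, the versican gene Vcan by 1.49 ± 0.183, and Lama1 and Itga8 by 0.78 ± 0.110 and 0.78 ± 0.152. In the list of chemokine, PDGF and guidance signals 12 of 26 rose, 4 fell and 10 did not pass. The largest of them are receptors that steer cells and vessels. Nrp1, a co-receptor gene for VEGF and semaphorins, had 764, 615 and 778 in the induced arrays, against 195, 178 and 174 in the uninduced arrays. Unc5c, a netrin receptor gene, had 208, 139 and 147 in the induced arrays, against 15.9, 28.5 and 34.9 in the uninduced arrays, and Ackr3, a scavenging receptor gene for Cxcl12, rose by 1.39 ± 0.212. While both receptor genes Cxcr4 and Ackr3 rose, the gene of their ligand Cxcl12 averaged 109 in induced and 266 in uninduced arrays (effect -1.08 ± 0.115, named after its value was seen). Among Eph receptors and ephrins 5 of 18 rose (3 without induced replicate 1 or uninduced replicate 1), 3 fell (1 without induced replicate 1 or uninduced replicate 2) and 10 did not pass. Epha4 (0.77 ± 0.154, 4 of 5 probe sets called) and Efna3 (0.73 ± 0.144) rose, and Epha2 (-0.74 ± 0.126) fell.

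Muscle genes were measured as well. Of 24 tested contractile genes 7 rose, 0 fell and 17 did not pass. Myl7, an atrial myosin light chain gene that is active in the early heart tube, had 272, 257 and 294 in the induced arrays, against 103, 111 and 119.8 in the uninduced arrays. The actin genes Acta1 (0.76 ± 0.122), Acta2 (0.75 ± 0.101) and Actc1 (0.65 ± 0.113) and the smooth muscle gene Tagln (0.72 ± 0.119) rose. In the neural crest list 6 of 13 rose, 2 fell and 5 did not pass. Msx1, the ETS gene Ets1 (1.31 ± 0.121, 2 of 4 probe sets called) and Snai2 rose most, and all 3 are known from mesoderm as well as from neural crest. Foxd3 and Erbb3, a receptor gene of migrating crest (-0.69 ± 0.0888), fell.

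**Figure D2:**
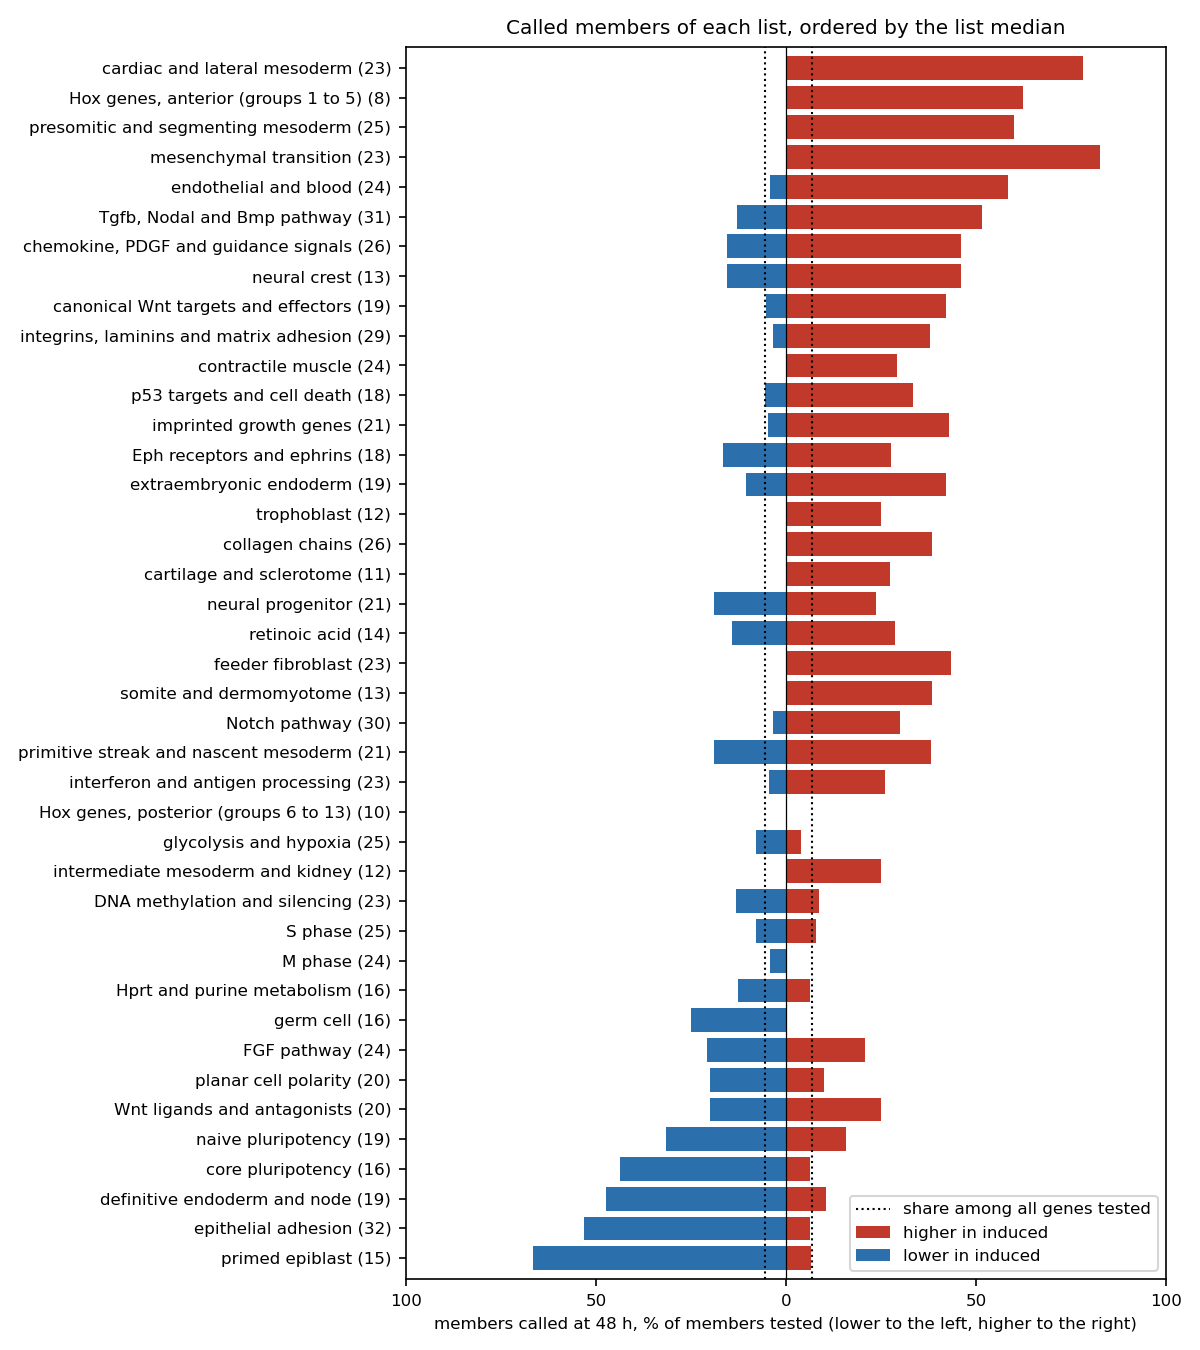
Share of tested members called at 48 h in each of 41 lists, higher in induced to the right (red) and lower in induced to the left (blue), ordered by the list's median effect, with the number tested in brackets; dotted lines mark 6.8% and 5.53%, the shares of all tested genes called higher and lower. The cardiac and lateral mesoderm list stands at the top with 18 of 23 members higher, and the primed epiblast list at the bottom with 10 of 15 lower.

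Genes of definitive endoderm and node fell as well. Of 19 tested members 9 fell, 2 rose and 8 did not pass, with a median effect of -0.35. Beside Foxa2, Cer1, Trh and Cldn6, Sox17, the endoderm and endothelium gene, averaged 317 in induced and 597 in uninduced arrays and was named after its value was seen. The members that rose, Cxcr4 and Gata6, are also expressed in mesoderm. In the extraembryonic endoderm list 8 of 19 rose, 2 fell (1 without induced replicate 3) and 9 did not pass. The members that rose, from the largest effect down, were Sox7, Pdgfra, Col4a1, Col4a2, Gata4, Lama1, Sparc and Gata6. Sparc rose by 0.70 ± 0.0836 and was named after its value was seen. The 5 that rose most are expressed in mesoderm or its basement membrane as well as in extraembryonic endoderm. Afp and Ttr, defining genes of the visceral endoderm, were not tested. In the trophoblast list 3 of 12 rose, 0 fell (2 without induced replicate 1, 1 without uninduced replicate 3) and 9 did not pass. These were Hand1, Gata3 and Cdx2, which mesoderm also expresses. Gata4 and Hand1 were counted in the cardiac and lateral mesoderm list too, and Sox7 in the endothelial and blood list. From which cells the RNA of such shared genes came was not tested, in these lists or in any other.

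Primed epiblast genes had the lowest median of all lists, -0.64. Of 15 tested members 10 fell, 1 rose and 4 did not pass. Fgf5, Sox3, Pou3f1 and Otx2 fell as given above, the amino acid transporter gene Slc7a3 fell by 1.14 ± 0.126, and Lef1 was the member that rose. In the core pluripotency list 7 of 16 fell, 1 rose (0 without induced replicate 2) and 8 did not pass. Utf1, a chromatin factor gene, had 251, 269 and 256 in the induced arrays, against 596, 555 and 736 in the uninduced arrays (2 of 3 probe sets called). Nanog, a homeobox gene of pluripotent cells, had 1164, 1427 and 1241 in the induced arrays, against 1821, 1741 and 1677 in the uninduced arrays, and L1td1, an RNA-binding protein gene, fell by 0.72 ± 0.0998. Pou5f1, the Oct4 gene, looked up afterwards, averaged 3149 in induced and 4118 in uninduced arrays, so it was bright in both groups. In the naive pluripotency list 6 of 19 fell, 3 rose and 10 did not pass. The nuclear receptor gene Nr0b1 had 64.1, 59.0 and 62.7 in the induced arrays, against 138, 103 and 178 in the uninduced arrays, and Zfp42 (Rex1) fell by 0.49 ± 0.0974. The members that rose, Tbx3, Klf4 (0.76 ± 0.168, 1 of 2 probe sets called) and Stat3, also serve in other tissues, and the call of Stat3 was weak.

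Of 16 tested germ cell genes 4 fell (2 without induced replicate 3 or uninduced replicate 2), 0 rose and 12 did not pass. Sycp3, a meiotic chromosome gene, had 562, 800.5 and 609.6 in the induced arrays, against 1233, 1256 and 1124 in the uninduced arrays. Kit, a receptor gene of germ cells and blood, had 98.9, 146 and 116 in the induced arrays, against 242, 268 and 215 in the uninduced arrays (1 of 2 probe sets called). Of 21 tested neural progenitor genes 5 rose (3 without induced replicate 1 or uninduced replicate 2), 4 fell and 12 did not pass. The list's median effect was 0.095. The SoxB1 genes Sox2 and Sox3, Otx2 and Zic2 (-0.64 ± 0.110) fell. The adhesion gene Ncam1, also active in mesoderm, rose by 0.99 ± 0.122 (2 of 4 probe sets called). The other members that rose were Lhx2 (0.54 ± 0.141), Cdh2 (0.50 ± 0.1135), Irx3 (0.39 ± 0.102) and Fabp7, which is taken up below. Lhx2, Cdh2 and Irx3 were named after their values were seen. Pax6, a marker of committed neural cells looked up afterwards, stood at 0.095 ± 0.111 with a signal near the floor.

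Mouse embryonic fibroblasts had fed the stem cells before differentiation, so their markers were read beside the mesenchymal lists. Of 23 tested feeder fibroblast genes 10 rose, 0 fell (1 without induced replicate 1) and 13 did not pass, with a median effect of 0.09. The summed signal of the list was 4096 to 4367 in induced and 2687 to 3050 in uninduced arrays. Fbln2 (1.23 ± 0.151), Col5a2 (0.98 ± 0.102), Igf1 (0.96 ± 0.122), Fstl1 (0.95 ± 0.0676) and Col1a2 (0.84 ± 0.127) rose most. Some of the 13 members that did not pass were looked up afterwards. Col1a1 averaged 23.8 in induced and 18.2 in uninduced arrays, Col3a1 97.4 and 90.0, Dcn 35.5 and 56.4, Lum 11.6 and 16.9, and Postn 93.2 and 93.5. A part of remaining feeder cells in the mesenchymal rises was not tested.

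Lists of cell cycle, metabolism and chromatin genes were read against the 12.3% of all genes called. The called share was 16% in the S phase list, 4.17% in the M phase list, 12.0% for glycolysis and hypoxia, 21.7% for DNA methylation and silencing, and 18.8% for purine metabolism. Of 25 tested S phase genes 2 rose, 2 fell (0 without induced replicate 1 or 3 or uninduced replicate 1 or 3, 1 without uninduced replicate 2) and 21 did not pass. The cyclin gene Ccne2 rose by 0.45 ± 0.0992 and the ribonucleotide reductase gene Rrm2 by 0.23 ± 0.0513 (1 of 3 probe sets called). Of 24 M phase genes 1 fell (0 without induced replicate 1 or 3 or uninduced replicate 1 or 2), 0 rose and 23 did not pass. Of 25 glycolysis and hypoxia genes 1 rose (0 without induced replicate 1 or 3 or uninduced replicate 1), 2 fell (1 without induced replicate 1, 2 or 3 or uninduced replicate 1 or 3) and 22 did not pass. Pdk1, a kinase gene that limits entry of pyruvate into mitochondria, fell by 0.50 ± 0.0887 (2 of 3 probe sets called). For DNA methylation and silencing 2 of 23 rose, 3 fell (1 without induced replicate 3 or uninduced replicate 1 or 2) and 18 did not pass. Hmga2, a chromatin gene of proliferating mesenchyme, rose by 1.15 ± 0.104 (3 of 4 probe sets called), Myc by 0.62 ± 0.131, and the methyltransferase gene Dnmt3b of the epiblast fell by 0.59 ± 0.133. Of 16 genes of purine metabolism 1 rose (2 without induced replicate 1), which was Hprt, 2 fell (1 without induced replicate 1 or uninduced replicate 3) and 13 did not pass. Paics, a gene of purine synthesis, fell by 0.27 ± 0.0637 (1 of 3 probe sets called).

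Other pathways had larger shares. Of 18 p53 target and cell death genes 6 rose, 1 fell and 11 did not pass. Cdkn1a, the p21 cell cycle inhibitor gene, had 719.8, 829 and 837 in the induced arrays, against 409, 411 and 399 in the uninduced arrays. Plk2 rose by 0.91 ± 0.134, Ccng1 by 0.51 ± 0.0873 (2 of 3 probe sets called) and the death receptor gene Tnfrsf10b by 0.54 ± 0.134 (1 of 2 called), and Gadd45a fell by 0.50 ± 0.0859. At 24 h 0 members had been called higher by limma, and 5 had an effect called larger at 48 h. In the interferon and antigen processing list 6 of 23 rose, 1 fell and 16 did not pass, with Usp18 (0.96 ± 0.158), Ifitm1 (0.65 ± 0.0771) and Ifitm3 (0.52 ± 0.0723) upward and Bst2 (-0.87 ± 0.104) downward. Of 21 imprinted growth genes 9 rose, 1 fell (0 without induced replicate 1 or 3 or uninduced replicate 1) and 11 did not pass. Beside Igf2 and Phlda2, Cdkn1c, a cell cycle inhibitor gene, had 606, 388 and 488 in the induced arrays, against 243, 247 and 223 in the uninduced arrays, and Peg3 and the transporter gene Slc38a4 rose by 0.86 ± 0.134 and 0.85 ± 0.0866. Igf2 and Phlda2 thus rose with effects of 3.83 and 1.96, against a median of 0.16 in their list.

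Some calls in these lists were weak and ended when 1 array was left out, in 26 of the 183 called genes among those named by rule. Probe set counts in brackets say how many of a gene's kept probe sets were called when each was tested by itself, where not all were. Among mesoderm and signalling genes, the rise of Pax3, a dermomyotome and neural tube gene (0.45 ± 0.142, 1 of 2 probe sets called), ended without induced replicate 1, 2 or 3 or uninduced replicate 1 or 2 (adjusted p 0.0588 to 0.179). That of Osr1, a kidney progenitor gene (0.53 ± 0.142), ended without induced replicate 1 or uninduced replicate 1 or 2 (adjusted p 0.0599 to 0.0953). Aldh1a2, which makes retinoic acid in the somites (0.67 ± 0.189), lost its call without induced replicate 1 or uninduced replicate 1, 2 or 3 (adjusted p 0.0540 to 0.160), and Dhrs3, a retinaldehyde reductase gene (-0.62 ± 0.144), without induced replicate 1 (adjusted p = 0.0536). The receptor gene Fgfr3 (0.59 ± 0.177) lost its call without induced replicate 1 or 3 or uninduced replicate 1 or 2 (adjusted p 0.0584 to 0.210), and the ligand gene Fgf15 (0.57 ± 0.185, 0 of 1 probe sets called) without induced replicate 1 or 3 or uninduced replicate 1, 2 or 3 (adjusted p 0.0584 to 0.304). The ephrin gene Efna1 (0.54 ± 0.178, 0 of 2 probe sets called) lost its call without induced replicate 1 or 3 or uninduced replicate 1 or 2 (adjusted p 0.115 to 0.280), and Efna4 (0.52 ± 0.161) without induced replicate 1, 2 or 3 or uninduced replicate 1 or 3 (adjusted p 0.0592 to 0.141). Among planar cell polarity genes, Celsr2 (-0.46 ± 0.122, 1 of 2 probe sets called) lost its call without induced replicate 3 or uninduced replicate 2 (adjusted p 0.0859 to 0.118), Ror1 (-0.39 ± 0.105) without induced replicate 1 or 3 or uninduced replicate 1 (adjusted p 0.0735 to 0.0987), and Ptk7 (0.39 ± 0.0926) without uninduced replicate 3 (adjusted p = 0.0523). The cartilage collagen gene Col9a1 (0.35 ± 0.114, 0 of 2 probe sets called) lost its call without induced replicate 1 or 2 or uninduced replicate 1, 2 or 3 (adjusted p 0.0728 to 0.235).

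In the other lists, the naive pluripotency gene Stat3 (0.50 ± 0.138, 1 of 3 probe sets called) lost its call without induced replicate 1 or uninduced replicate 1 or 3 (adjusted p 0.0617 to 0.126), and the RNA-binding gene Lin28a (-0.28 ± 0.0907, 0 of 2 probe sets called) without induced replicate 2 or 3 or uninduced replicate 1, 2 or 3 (adjusted p 0.0598 to 0.273). The transposon silencing gene Mael (-0.33 ± 0.0974) lost its call without induced replicate 1 or 3 or uninduced replicate 2 (adjusted p 0.0565 to 0.167), and Prdm1, a repressor gene of endoderm and germ cells (-0.32 ± 0.104, 0 of 1 probe sets called), without induced replicate 2 or 3 or uninduced replicate 1 or 2 (adjusted p 0.103 to 0.242). The replication genes Pola1 (-0.28 ± 0.0867, 0 of 1 probe sets called) and Mcm2 (-0.23 ± 0.0665, 1 of 2 probe sets called) lost theirs, Pola1 without any 1 of the 6 arrays (adjusted p 0.0544 to 0.152) and Mcm2 without induced replicate 1 or 3 or uninduced replicate 1 or 3 (adjusted p 0.0611 to 0.112). The spindle gene Nusap1 (-0.30 ± 0.0950, 0 of 1 probe sets called) lost its call without induced replicate 1 or 3 or uninduced replicate 1, 2 or 3 (adjusted p 0.0695 to 0.151). The growth factor gene Vegfa (0.62 ± 0.170, 1 of 2 probe sets called) lost its call without induced replicate 1 or 3 or uninduced replicate 1 (adjusted p 0.0587 to 0.137), and the glucose transporter gene Slc2a1 (-0.33 ± 0.0960, 1 of 3 probe sets called) without induced replicate 1, 2 or 3 or uninduced replicate 1 or 3 (adjusted p 0.0563 to 0.0893). The guanylate-binding protein gene Gbp2 (0.68 ± 0.159) lost its call without induced replicate 1 (adjusted p = 0.0505), the chromatin gene Jarid2 (-0.30 ± 0.0876) without induced replicate 1 or 3 or uninduced replicate 1 or 2 (adjusted p 0.0562 to 0.140), and Prps1, a gene of nucleotide synthesis (-0.26 ± 0.0794), without induced replicate 1 or uninduced replicate 2 or 3 (adjusted p 0.0782 to 0.189). The largest of these effects was that of Gbp2, and none of the 40 largest changes was among them.

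The response at 48 h was set against those at 24 h and 12 h, which share no array with it. At 24 h 550 genes (3.84%) were called, 411 (2.87%) higher and 139 (0.97%) lower. At 12 h 153 genes (1.07%) were called, 128 (0.893%) higher and 25 (0.174%) lower. Of the 975 genes called higher at 48 h, 231 (23.7%) had also been called higher at 24 h, which is 56.2% of the genes higher at 24 h. Of the 793 called lower, 58 (7.31%) had been called lower at 24 h, which is 41.7% of the genes lower then. 2 genes higher at 48 h had been called lower at 24 h, and 7 genes lower at 48 h had been called higher. Of all genes called at 48 h, 1410 (79.8%) had an effect of the same sign at 24 h. The same share over all tested genes was not taken, so this value has no background to be read against.

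The test of the difference between the effects at 48 h and 24 h called 440 genes (3.07%), 207 (1.44%) with a higher and 233 (1.63%) with a lower effect at 48 h. The same test against 12 h called 778 genes (5.43%), 403 (2.81%) with a higher and 375 (2.62%) with a lower effect. Among genes higher at 48 h, 191 had an effect called above that at 24 h and 6 one called below it. Among genes lower at 48 h, 178 had an effect called below that at 24 h and 0 one called above it by limma. Of the 20 largest falls 6 had been called at 24 h and 1 at 12 h, and for all 20 the difference from 24 h was called. Of the 20 largest rises 13 had been called at 24 h and 4 at 12 h, and for 16 the difference from 24 h was called. Genes in these splits were chosen by their effect at 48 h, which is itself a part of the difference tested. That choice favours a larger effect at 48 h than at 24 h, so the splits are not separate support for a late response.

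Several of the largest rises appeared between 24 h and 48 h. Foxf1 averaged 20.9, 13.5 and 268 in induced embryoid bodies at 12, 24 and 48 h, against 12.5, 16.2 and 9.89 in uninduced ones. Hand2 averaged 5.16, 14 and 265 in induced embryoid bodies at those times, against 7.45, 7.70 and 16.6 in uninduced ones, and Bmp4 71.0, 85.4 and 624 in induced against 99.0, 68.2 and 83.2 in uninduced ones. None of these 3 genes was called at 12 h or 24 h. The effect at 48 h exceeded that at 24 h by 2.86 ± 0.301 for Foxf1, 2.37 ± 0.221 for Hand2 and 2.21 ± 0.328 for Bmp4 (limma adjusted p = 6.84e-06, 1.44e-06 and 3.51e-04). The same difference was 2.86 ± 0.251 for Pmp22 and 1.89 ± 0.205 for Msx2, and neither had been called earlier. Igf2 had already been called higher at 24 h, with an effect of 1.43, and gained a further 2.40 ± 0.200 by 48 h.

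Foxa2 and Cer1 rose between 24 h and 48 h in uninduced embryoid bodies and were far lower at 48 h in induced ones. Foxa2 averaged 47.4, 109 and 168 in induced embryoid bodies at 12, 24 and 48 h, against 53.01, 109 and 772 in uninduced ones. Cer1 averaged 55.2, 79.6 and 94.7 in induced, against 45.7, 79.2 and 364 in uninduced embryoid bodies. Neither gene was called between the groups at 12 h or 24 h, and in uninduced embryoid bodies both genes were called higher at 48 h than at 24 h, as were 1828 genes in all (12.8%), while 1669 (11.6%) were called lower. The difference of effects, 48 h minus 24 h, was -2.001 ± 0.247 for Foxa2 and -1.59 ± 0.316 for Cer1 (limma adjusted p = 4.05e-05 and 0.00497).

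Several genes of the early response had a smaller or opposite difference at 48 h. Prickle1, a planar cell polarity gene, averaged 841, 853 and 526 in induced embryoid bodies at 12, 24 and 48 h, against 173, 323 and 673 in uninduced ones, so that its effect of 2.09 at 12 h and 1.32 at 24 h was followed by -0.34 ± 0.0930 at 48 h. That last value was called (adjusted p = 0.0169, 1 of 3 probe sets), and the call ended without induced replicate 1 or uninduced replicate 1 or 2 (adjusted p 0.0719 to 0.119). Eomes averaged 407, 1453 and 2685 in induced embryoid bodies, against 254, 485 and 2780 in uninduced ones, and was not called at 48 h (adjusted p = 0.824). Both groups were bright by then, and their arrays overlapped. Aplnr, which encodes the receptor for apelin on migrating mesoderm, had 3836, 2723 and 3182 in the induced arrays, against 1627, 2046 and 1398 in the uninduced arrays, and its effect of 0.93 ± 0.193 was smaller than the 2.66 at 24 h. Fabp7, a fatty acid binding protein gene of radial glia, stood at 0.53 ± 0.139, against 2.05 at 24 h, and its call at 48 h ended without induced replicate 2 or uninduced replicate 2 (adjusted p 0.0802 to 0.0919). Pdzrn3, a ubiquitin ligase gene, had an effect of 1.21 at 12 h and of -0.21 ± 0.105 at 48 h, where it was not called (adjusted p = 0.238). Dll3, still among the most significant rises, had an effect of 1.43 at 48 h, below the 2.12 at 24 h by a called difference.

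**Figure D3:**
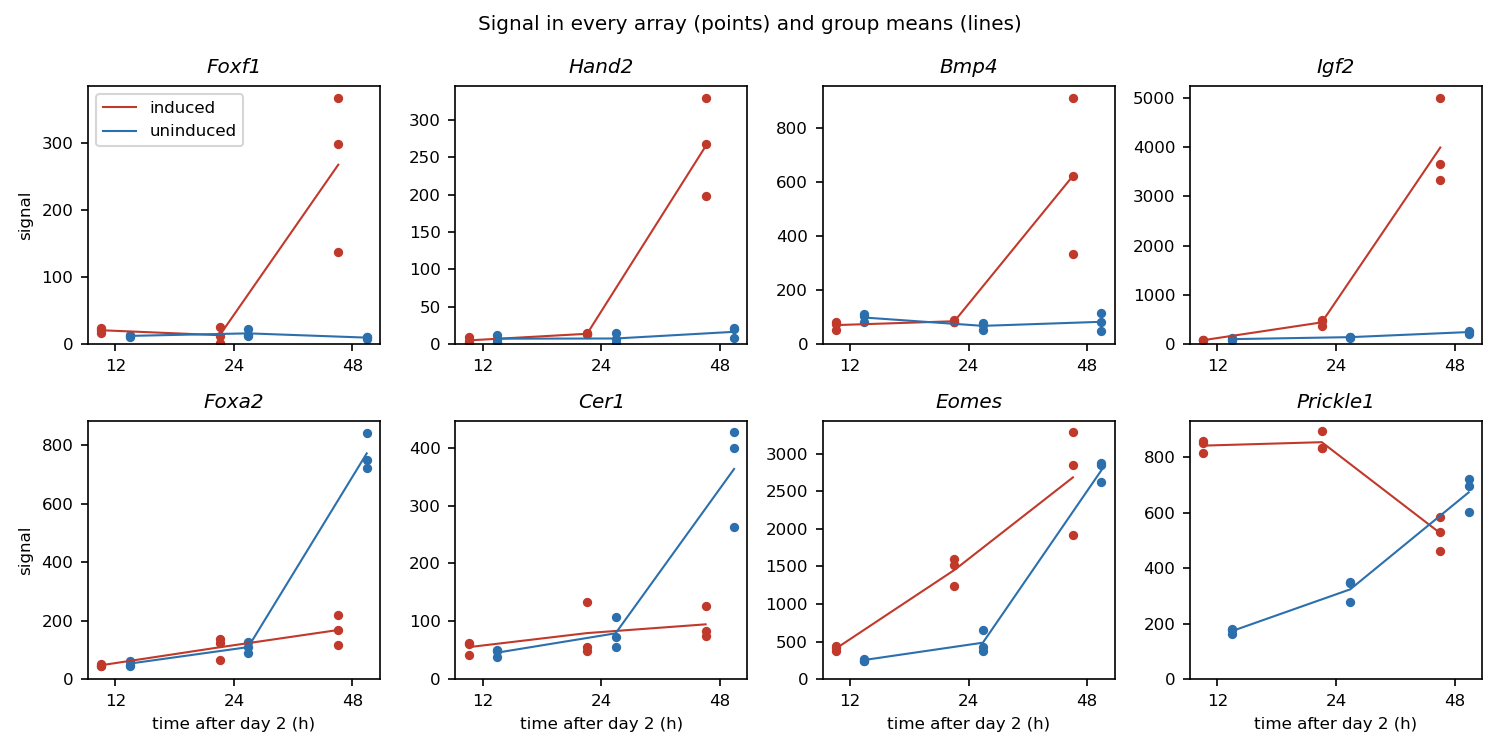
Signal of 8 genes at 12, 24 and 48 h after day 2, with 1 point per array and lines through the means of 3 arrays; induced arrays are red and set slightly left of each tick, uninduced arrays are blue and set slightly right, and the times are evenly spaced on the axis. Foxf1, Hand2, Bmp4 and Igf2 are highest in induced arrays at 48 h, where Foxf1 averages 268 against 9.89 in uninduced arrays, Foxa2 and Cer1 are highest in uninduced arrays at 48 h, and Eomes reaches 2685 in induced and 2780 in uninduced arrays.

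**Figure D4:**
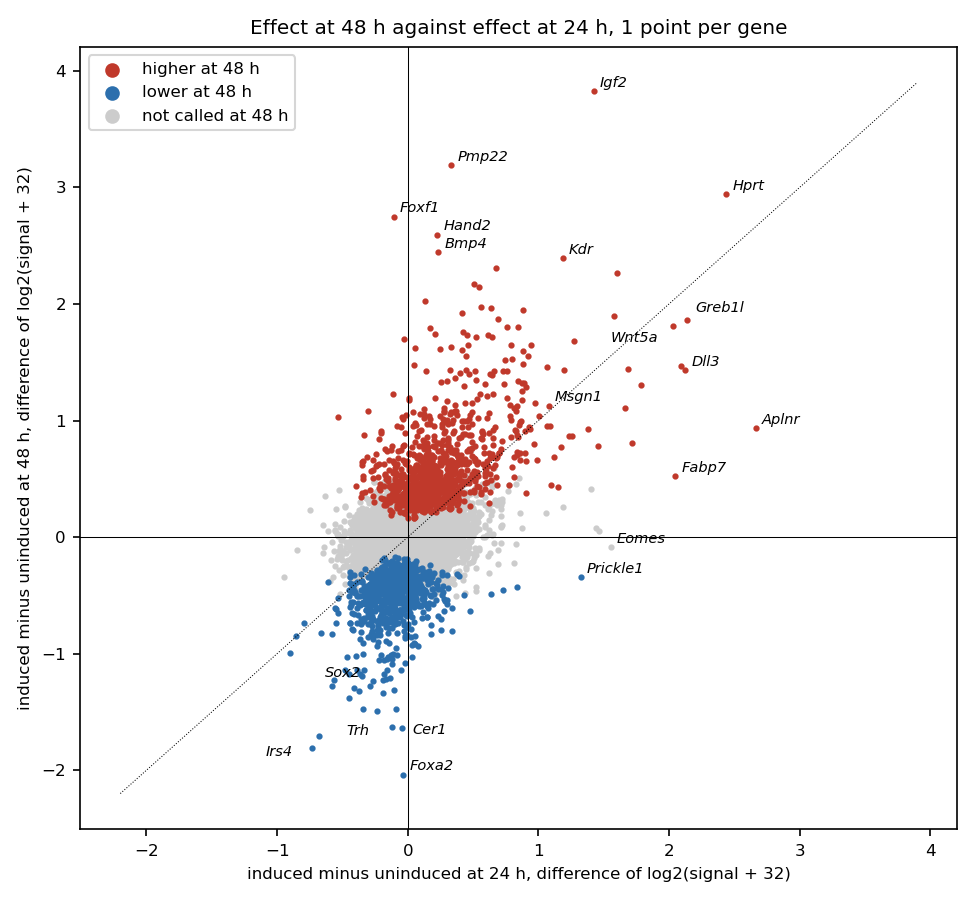
Effect of induction at 48 h (vertical) against the effect at 24 h (horizontal), each a difference of group means of log2(signal + 32), with 1 point for each of 14332 genes; red genes are called higher and blue genes lower at 48 h, grey genes are not called, and the dotted line marks equal effects. Igf2 lies at 3.83 against 1.43 and Foxf1 at 2.75 against -0.11, above the line, while Aplnr lies at 0.93 against 2.66, below it.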

How the data were processed

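RNA from 18 samples was hybridised to Affymetrix Mouse 430 2.0 arrays with 1 channel. The authors deposited 1 signal intensity per probe set on a linear scale, made with GCOS per the submitters' processing notes. Neither the algorithm nor its scaling target is named (not given in the sources used here). From the values, each array's 2% trimmed mean is the same, so arrays were not scaled again. There was no column without a sample, and no 2 arrays were identical.

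Of 45101 probe sets, 34945 had 1 gene name in the platform annotation, 34741 of them updated through their Entrez ID, 932 had several, 9160 had none and 64 were controls. Probe sets were kept where at least 1 group mean reached a signal of 13.3, the 40th percentile of all values. The probe set with the highest mean stood for its gene, and of the 14332 genes 6718 had several kept probe sets. limma 3.58.1 in R 4.3.3 was fitted to log2(signal + 32) of all 18 arrays with 6 group means (12 residual degrees of freedom, trended prior variance), and p-values were adjusted over all genes by Benjamini-Hochberg. Errors after ± are the fit's standard errors on the log2 scale. The scripts were tested on simulated data. Other tests were 2-sided exact permutations (scipy 1.17.1, Python 3.11.15).

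The rule for named genes took Msgn1, the 20 largest rises and 20 largest falls called with groups that did not overlap, the 6 largest called differences each way from 24 h and from 12 h, the 6 smallest p each way not yet named, and in each list the 5 called members of largest change, or 2 members where none was called. Clone and predicted names were passed over. The 41 lists hold 807 genes, of which 696 were tested. The comparison, the lists and the rule were chosen with earlier results of these data known. Genes said to be looked up or named afterwards lie outside the rule. Alternatives were quantile normalization, offsets of 16 and 64, no filter and a 60th percentile filter, a mean over the probe sets of each gene, every probe set, no trend, a robust prior, the 6 arrays at 48 h alone, the replicate number as a block, and each array at 48 h left out. Promoter windows came from a RefSeq table (GRCm38.p6).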

Additional observations from a re-analysis of the deposited data

Results flagged for a closer look

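The effect of induction differed between times, by limma's test of the difference itself, for the genes with the largest such differences in either direction. From 24 h to 48 h the effect grew by 2.86 on the log2 scale for Pmp22, 2.86 for Foxf1, 2.40 for Igf2, 2.37 for Hand2, 2.21 for Bmp4 and 1.89 for Msx2. The same difference, 48 h minus 24 h, was -2.001 for Foxa2, -1.73 for Aplnr, -1.66 for Prickle1, -1.64 for Eomes, -1.59 for Cer1 and -1.52 for Fabp7. Foxa2 and Cer1 were near 0 at 24 h and lower in induced arrays at 48 h, whereas Aplnr, Prickle1, Eomes and Fabp7 had been higher in induced arrays at 24 h.

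Against 12 h, the effect at 48 h was larger by 4.06 for Igf2, 3.35 for Pmp22, 2.80 for Bmp4, 2.68 for Hand2, 2.50 for Foxf1 and 2.25 for Asb4. It was lower, 48 h minus 12 h, by a difference of -2.43 for Prickle1, -1.94 for Foxa2, -1.80 for Cer1, -1.76 for Trh, -1.55 for Myb and -1.42 for Pdzrn3. The adjusted p of these 12 differences was at most 0.000934, and that of the 12 differences from 24 h at most 0.00497.

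Probe sets without a single gene name stand outside the comparisons of genes. Of 4690 such probe sets, 106 were called at 48 h, 48 higher and 58 lower in induced arrays. That is a smaller share than the 12.3% of genes called at 48 h. These probe sets were tested and adjusted in a fit of their own. No gene is given to them here.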

How the results depend on the processing

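With all 18 arrays, 1768 genes were called at 48 h. There were 11 alternatives that keep every array of the comparison. With every probe set tested by itself, 2305 of 26037 probe sets were called. Under the others, which count genes, the number called lay between 1606 (only the 6 arrays at 48 h) and 2063 (replicate number as a block). Quantile normalization gave 1772, with 931 higher and 841 lower. Leaving out 1 array at a time gave 1267 to 1681 genes called, 712 to 911 higher and 555 to 770 lower. It gave 312 to 481 genes for the difference between 48 h and 24 h, 601 to 824 for that between 48 h and 12 h, and 232 to 267 called members of the lists, against 275 with every array. None of these totals moved by more than 1.5 times. The counts of single lists that did, when 1 array was left out, stand beside them in brackets with that array. Of 3174 values of named genes under the alternatives 151 lost the call and none reversed, and the 40 largest changes lost none of theirs.

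With the replicate number as a block, 2063 genes were called at 48 h (1125 higher and 938 lower), 510 for the difference from 24 h, 912 for that from 12 h and 297 members of the lists. Arrays of the same number at 48 h deviated from their group means with correlations of -0.096, -0.031 and 0.12, while arrays of other numbers reached 0.14, so the numbers do not pair the arrays there. At 24 h the same-numbered correlations were 0.20, 0.12 and 0.44. Induced replicate 1 with uninduced replicate 2 gave 0.21, and induced replicate 2 with uninduced replicate 1 gave 0.11. Replicate 3 with any other number gave -0.33 to -0.19, so at 24 h replicate 3 stood apart from the others in both groups. Its Actb 3' to 5' ratio was 2.10 in induced and 1.95 in uninduced arrays, against 1.54 to 1.68 in the other arrays at 24 h. The block called 664 genes at 24 h against 550 without it. At 48 h the block ended the calls of 2 named genes, Prdm1 and Col9a1.

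Of the 183 called named genes, 44 have several kept probe sets of which not all were called when each was tested by itself. In 7 of the 183, some with a single probe set, no probe set was called in that test. None has one called in the other direction. For 17 named genes the probe set can also match other transcripts: beside those given with the largest changes these are Apcdd1, Wnt3, Crb3, Ackr3, Snai2, Acta2, Rrm2, Mcm2, Tnfrsf10b, Hmga2 and Jarid2. Signals near the filter limit what dim genes such as the posterior Hox genes can show.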
